A study of Rattus norvegicus with 10 samples.

Results

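Creatine kinase of muscle (Ckm, NM_012530), the muscle form of phosphoglycerate mutase (Pgam2, NM_017328), beta-enolase (Eno3, NM_012949) and carbonic anhydrase 3 (Car3, NM_019292) were measured in the tibial shaft of rats after mechanical loading. The genes were picked by accession as enzymes of muscle energy metabolism, and they are 4 of the 4803 accessions spotted on the array. By the study's account, each of the 10 spotted oligonucleotide arrays held RNA of both tibiae of 1 female Wistar rat aged 12 weeks. The treated right and the untreated left tibia were labelled with different dyes. In the LOAD group (n = 5) the right lower leg was bent for 300 cycles at 2 Hz at a peak force set to 60 N (the methods give a somewhat higher measured force), in the SHAM group (n = 5) it was squeezed without bending of the bone, and RNA was taken 6 h later from shafts without their ends, periosteum and marrow. The left tibia of either group was the contralateral control, so it came from an animal that had been treated on the other side.

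Contracting muscle regenerates ATP from phosphocreatine through creatine kinase and makes more of it by glycolysis, in which phosphoglycerate mutase and enolase catalyse consecutive steps. Each of these enzymes has a form that predominates in skeletal muscle, and Ckm, Pgam2 and Eno3 are most abundant in fast fibers. Car3, a cytosolic enzyme that hydrates carbon dioxide, is the form of slow fibers and is also abundant in fat and liver. Outside muscle other forms predominate, such as the brain form of creatine kinase (Ckb) and alpha-enolase (Eno1).

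Promoters of 3 of the 4 members were held by a table of RefSeq gene starts (build GRCr8), and they are shown because the E-box, the letters CANNTG that myogenic factors of the MyoD family bind, is the element that genes of skeletal muscle are known to share. Each run holds 250 bases before and 50 bases after the start that the table gives, 5′ to 3′ on the strand of the gene, and E-boxes are in capitals. Ckm lies on the plus strand at chr1:88189211-88189510, Pgam2 on the minus strand at chr14:84897825-84898124 and Eno3 on the plus strand at chr10:55868936-55869235. The gene records of this build begin earlier, at 88189382 for Ckm and at 55868880 for Eno3. The starts used here thus lie inside both genes, and the window of Eno3 lies wholly inside its gene. Distances are counted from the starts used here.
Ckm: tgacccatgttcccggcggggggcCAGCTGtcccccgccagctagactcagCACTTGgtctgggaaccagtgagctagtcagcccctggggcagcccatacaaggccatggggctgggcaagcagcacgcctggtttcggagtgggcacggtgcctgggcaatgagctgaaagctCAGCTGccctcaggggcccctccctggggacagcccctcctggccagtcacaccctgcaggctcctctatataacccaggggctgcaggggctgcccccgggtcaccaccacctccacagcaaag
Pgam2: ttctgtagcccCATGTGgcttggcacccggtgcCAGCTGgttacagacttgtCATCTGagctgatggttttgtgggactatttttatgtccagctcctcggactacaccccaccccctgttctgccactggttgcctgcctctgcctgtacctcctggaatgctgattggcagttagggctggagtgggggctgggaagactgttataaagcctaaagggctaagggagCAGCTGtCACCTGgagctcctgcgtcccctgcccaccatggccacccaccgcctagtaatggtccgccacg
Eno3: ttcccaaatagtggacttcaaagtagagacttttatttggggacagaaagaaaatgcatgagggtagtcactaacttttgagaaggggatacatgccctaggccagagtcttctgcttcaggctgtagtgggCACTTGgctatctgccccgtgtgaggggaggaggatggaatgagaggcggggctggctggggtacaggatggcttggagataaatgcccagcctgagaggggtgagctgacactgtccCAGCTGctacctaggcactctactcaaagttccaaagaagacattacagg
The E-box reads the same on both strands apart from its middle letters, and 72.1% of the 33469 promoters in the table held at least 1. Ckm had 3 matches, the first of them 226 bases and the last 75 bases before the start. Pgam2 had 5, and a pair of them, at 21 and 14 bases before the start, was separated by a single base. At least 5 matches were found in 1.77% of all promoters. Eno3 had 2, of which the second began at the start itself. The letters TATAAA, searched on both strands, were present 46 bases before the start of Pgam2, in none of the other promoters shown, and in 14.2% of all promoters. The Ckm window holds the letters tataac and the Eno3 window the letters gataaa, each 1 letter away from TATAAA. The MEF2 site (YTAWWWWTAR, with Y for C or T, W for A or T and R for A or G) and the CArG box (CCWWWWWWGG) bind the muscle regulators MEF2 and serum response factor. They had no exact match in any of the 3 windows, against 3.29% and 1.64% of all promoters. The Pgam2 window holds the letters ctatttttat, which depart from the MEF2 pattern in the last letter only. A match is a description of letters and not a measured binding site. Car3 is named only.

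Before normalization the median log2 ratio of all spots lay between -1.19 and 0.80 on the single arrays. Between 32 and 166 of 4803 spots per array had a confidence under 0.11 and were left out, and 52.4% to 81.6% of spots had signal in both channels, with both extremes (166 spots and 52.4%) on LOAD 4. A label field of SHAM 1 reads LOAD, whereas its title and description read SHAM, and the latter were followed. The headers of the scanner files number the tibiae, and on 8 arrays the treated and the control tibia had consecutive numbers. On LOAD 4, however, tibia 3 was paired with tibia 26, and on SHAM 4, tibia 25 was paired with tibia 4. By consecutive numbers, the control on LOAD 4 would come from the SHAM 4 rat, and that on SHAM 4 from the LOAD 4 rat. The labels were followed throughout, and values with the controls of these arrays exchanged, or without these arrays, are given for the comparisons of the members. A number in the image names of the headers split the arrays into 4 sets, each with LOAD and SHAM arrays. These sets were taken as scan batches, which is an inference from the names.

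The spots of Ckm, Eno3 and Car3 had signal, at a probability of at least 0.5, in all 20 tibiae. Pgam2 had it in 5 of 20, namely the treated and the contralateral tibia of LOAD 3, the contralateral tibiae of LOAD 4 and SHAM 1, and the treated tibia of SHAM 2. The spot of Pgam2 on LOAD 2 had a confidence of 0.10 and was missing, so that its LOAD group has 4 values. Ratios of Pgam2 on arrays without signal rest on values near the limit of detection. The study's methods state that probes of this array cross-react in part, and how far transcripts of related enzymes contributed to these spots was not tested.

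Ckm had lower expression in the treated than in the contralateral tibia of all 5 LOAD rats, but the difference was large in 3 rats only. The log2 ratio of treated to contralateral tibia was -0.05 on LOAD 1, -0.23 on LOAD 2, -2.10 on LOAD 3, -2.56 on LOAD 4 and -1.96 on LOAD 5. On the SHAM arrays it was -0.95, 1.57, 0.36, -0.23 and 0.37 for replicates 1 to 5. LOAD 1 and LOAD 2 thus lay within the range of SHAM, and LOAD 3, LOAD 4 and LOAD 5 lay below all SHAM arrays. The mean log2 ratio was -1.38 ± 1.15 (SD, n = 5) in LOAD, a 2.6-fold lower level, and 0.22 ± 0.93 (SD, n = 5) in SHAM. In limma, LOAD had a standard error of 0.39 (p = 0.00431, adjusted p = 1), and by an exact sign-flip test p was 0.0625, the smallest that 5 arrays allow. LOAD minus SHAM was -1.60 (limma, standard error 0.55, adjusted p = 0.999; exact permutation p = 0.0556, 2-sided). Ckm was among the genes that the study selected on these same arrays, so its direction in LOAD is not independent evidence.

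Pgam2, which isomerizes phosphoglycerate, had a lower ratio on the 4 LOAD arrays that gave a value. It was -0.09 on LOAD 1, -0.62 on LOAD 3, -1.77 on LOAD 4 and -0.82 on LOAD 5. On the SHAM arrays it was -0.84, 1.06, 0.08, 0.19 and -0.04. LOAD 1, LOAD 3 and LOAD 5 lay within the range of SHAM, and LOAD 4 lay below it. On LOAD 1 and LOAD 5 the signal probability was under 0.5 in both channels. The mean was -0.83 ± 0.70 (SD, n = 4) in LOAD and 0.09 ± 0.68 (SD, n = 5) in SHAM. LOAD minus SHAM was -0.92 (limma, standard error 0.38, adjusted p = 0.999, exact permutation p = 0.0794) and -0.60 without LOAD 4. With no confidence filter, which keeps LOAD 2, the mean in LOAD was -0.60 and LOAD minus SHAM was -0.69.

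Eno3, the enolase of muscle, gave lower ratios on 3 of 5 LOAD arrays. The log2 ratio was 0.03, 0.18, -1.24, -0.80 and -1.49 on LOAD 1 to 5, and 0.21, -0.16, 0.24, -1.06 and 0.92 on SHAM 1 to 5. The low LOAD arrays were the same 3 as for Ckm, whereas SHAM 4, which was near 0 for Ckm, lay between LOAD 4 and LOAD 3. The mean was -0.66 ± 0.75 (SD, n = 5) in LOAD and 0.03 ± 0.72 (SD, n = 5) in SHAM, and the groups differed by -0.69 (limma, standard error 0.39, adjusted p = 0.999; exact permutation p = 0.183).

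Car3 showed small ratios in both groups. The log2 ratio was 0.05, -0.13, 0.21, -0.02 and -0.39 on LOAD 1 to 5 and 0.17, 0.17, 0.60, -0.09 and -0.15 on SHAM 1 to 5. LOAD 3 and LOAD 4, with the lowest Ckm ratios, had Car3 ratios above and close to 0. The mean was -0.06 ± 0.22 (SD, n = 5) in LOAD and 0.14 ± 0.30 (SD, n = 5) in SHAM. LOAD minus SHAM was -0.20 (limma, standard error 0.16, adjusted p = 0.999; exact permutation p = 0.294).

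**Figure D1:**
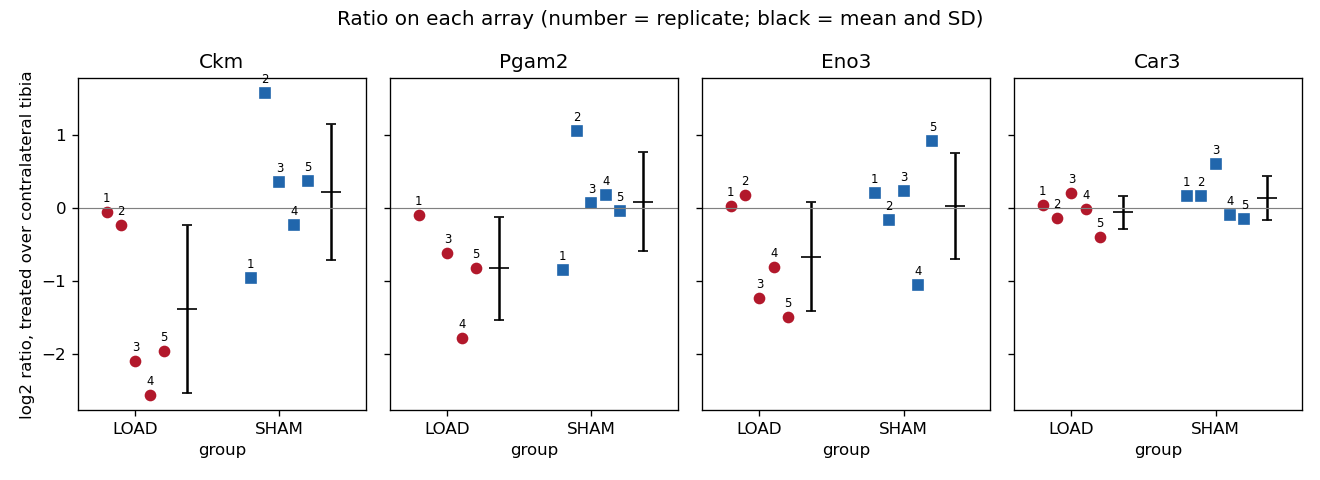
Log2 ratio of treated over contralateral tibia (y axis) on every array of LOAD (red circles) and SHAM (blue squares) for the 4 enzymes, with the replicate number above each point and the mean and SD in black. Ckm ranged from -2.56 on LOAD 4 to 1.57 on SHAM 2, whereas Car3 stayed between -0.39 and 0.60.

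At a false discovery rate of 20%, limma called none of the 4 members in LOAD, in SHAM or in LOAD minus SHAM. In each of these comparisons 0 (0%) of all 4707 genes tested were called. The study did call Ckm at this rate in LOAD, over fewer genes left by stricter filtering and with duplicate spots kept separate. What part these differences in processing had was not tested. At an unadjusted p under 0.05, 3 of the 4 members (Ckm, Pgam2 and Eno3) were lower in LOAD, against 1.72% of all genes tested, and 2 of the 4 (Ckm and Pgam2) were lower in LOAD minus SHAM, against 0.914% of all genes. In all, 157 genes in LOAD and 70 in LOAD minus SHAM had such a p. In SHAM 32 genes had, and none of the members was among them. All 3 counts were below what chance alone would give over 4707 genes. Ckm ranked 12th by p in LOAD and 10th in LOAD minus SHAM. The p-values measure the spread between rats, and the members were chosen with earlier results of these arrays known.

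With the contralateral tibiae of the arrays numbered 4 exchanged by the header numbers, LOAD 4 and SHAM 4 changed places for Ckm. The exchanged ratios of these arrays are differences between levels on different arrays, whereas all other ratios compare both dyes of the same spot. They therefore also hold differences between arrays. Its log2 ratio became 0.12 on LOAD 4 and -2.91 on SHAM 4, the group means became -0.84 ± 1.09 and -0.31 ± 1.71 (SD, n = 5 each), and LOAD minus SHAM became -0.53 (exact permutation p = 0.587). For Pgam2 the difference became 0.08, with LOAD 4 at 0.43 and SHAM 4 at -2.02 (exact permutation p = 0.921), and for Eno3 it became -0.35 (exact permutation p = 0.587). Car3 differed by -0.19, almost as before. Which pairing is true could not be told from the files. Without both arrays numbered 4, LOAD minus SHAM was -1.42 for Ckm, -0.57 for Pgam2, -0.93 for Eno3 and -0.27 for Car3.

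Within the scan batches, LOAD minus SHAM in Ckm was negative each time, at -0.45 in the batch of replicates 1 and 2 and at -2.45, -2.33 and -2.33 in the batches of replicates 3, 4 and 5. Pgam2 was negative in all 4 as well, with -0.20, -0.69, -1.96 and -0.78. Eno3 gave 0.08, -1.48, 0.25 and -2.41, so that only the batches of replicates 3 and 5 were clearly negative. Car3 gave -0.21, -0.39, 0.08 and -0.24. The last 3 batches held 1 array of each group.

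With the pairing of the labels, the levels of the single tibiae placed most of the difference in Ckm between LOAD and SHAM on the contralateral side. In the treated tibiae of LOAD the log2 level of Ckm was 8.999, 8.37, 9.07, 8.75 and 8.38 for replicates 1 to 5. In their contralateral tibiae it was 9.05, 8.60, 11.16, 11.31 and 10.34. The treated tibiae of LOAD thus lay close together, and the contralateral tibiae of LOAD 3, LOAD 4 and LOAD 5 stood above the rest. In SHAM it was 8.86, 10.34, 8.87, 8.40 and 9.55 in the treated and 9.81, 8.77, 8.51, 8.63 and 9.18 in the contralateral tibiae. The treated tibia of SHAM 2 was thus the highest of the SHAM group. From the highest, the order of the group means was contralateral LOAD (10.09 ± 1.22), treated SHAM (9.20 ± 0.76), contralateral SHAM (8.98 ± 0.53) and treated LOAD (8.71 ± 0.33, SD, n = 5 each), and neighbours in this order overlapped.

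Between the groups, the contralateral tibiae differed in Ckm by 1.11 (LOAD minus SHAM; limma single channel fit, standard error 0.64, adjusted p = 0.852; exact permutation p = 0.119) and the treated tibiae by -0.49 (adjusted p = 0.988; exact permutation p = 0.262). Without SHAM 2 the latter was -0.20. With the controls of the arrays numbered 4 exchanged, the contralateral difference in Ckm was 0.04 (exact permutation p = 0.976), and without both arrays numbered 4 it was 0.72. The study's real-time RT-PCR, on more rats, did not place the difference in this way. Its contralateral means of Ckm were close, or somewhat higher in LOAD, depending on the primers. Its treated means were lower in LOAD than in SHAM, with large spreads. At a false discovery rate of 20%, the single channel fits called 0 (0%) of 4472 genes in either comparison. An unadjusted p under 0.05 was found in 237 genes between the contralateral and in 217 between the treated tibiae. Both counts were close to what chance alone would give. With the replicate block these fits called 17 and 6 genes, and without LOAD 3 the count between contralateral tibiae was 14. As reported, none of the 3 members fitted had an unadjusted p under 0.05 in either comparison.

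For Pgam2 the contralateral tibiae of LOAD were at 6.64, 7.97, 8.14 and 7.12 (replicates 1, 3, 4 and 5) and the treated ones at 6.55, 7.35, 6.36 and 6.30. In SHAM the contralateral tibiae were at 7.04, 6.88, 5.86, 5.93 and 6.13 and the treated ones at 6.19, 7.94, 5.94, 6.12 and 6.10. As for Ckm, the contralateral tibiae of LOAD 3 and LOAD 4 and the treated tibia of SHAM 2 were the 3 highest. The contralateral tibiae differed by 1.10 between LOAD and SHAM (exact permutation p = 0.0556), the treated tibiae by 0.18 (exact permutation p = 0.643), and with the exchanged controls the contralateral difference was 0.10 (exact permutation p = 0.913). Pgam2 was not in the single channel fit, which takes no missing values.

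Eno3 in the contralateral tibiae of LOAD had log2 levels of 10.61, 8.67, 10.75, 10.50 and 9.93, and in the treated ones 10.64, 8.85, 9.51, 9.70 and 8.44. In SHAM the contralateral tibiae lay within 9.26 to 9.65 and the treated ones within 8.59 to 10.56. LOAD 1 was high and LOAD 2 low on both sides. The groups differed by 0.55 in the contralateral (limma adjusted p = 0.881; exact permutation p = 0.167) and by -0.14 in the treated tibiae (limma adjusted p = 0.994; exact permutation p = 0.825). With the exchanged controls the contralateral difference was 0.21 (exact permutation p = 0.643). The treated difference was 0.001 without LOAD 2, 0.10 without LOAD 5 and 0.11 without SHAM 5.

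Car3 ranged from 9.93 to 11.56 over the 20 tibiae. The median gap between the tibiae of a rat was 0.16, with 0.60 on SHAM 3 and 0.39 on LOAD 5 as the largest, against median gaps of 0.66 for Ckm, 0.62 for Pgam2 and 0.52 for Eno3. LOAD 1 was lowest, with 9.98 in the treated and 9.93 in the contralateral tibia, followed by LOAD 2 with 10.69 and 10.83. The other tibiae lay between 10.96 and 11.56. The groups differed by -0.52 in the treated (limma, standard error 0.26, adjusted p = 0.924; exact permutation p = 0.111) and by -0.32 in the contralateral tibiae (limma adjusted p = 0.881; exact permutation p = 0.373). Without LOAD 1 these differences were -0.28 and -0.06. Ckm, Pgam2 and Eno3 had their highest group mean in the contralateral tibiae of LOAD, whereas Car3 had it in the treated tibiae of SHAM.

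**Figure D2:**
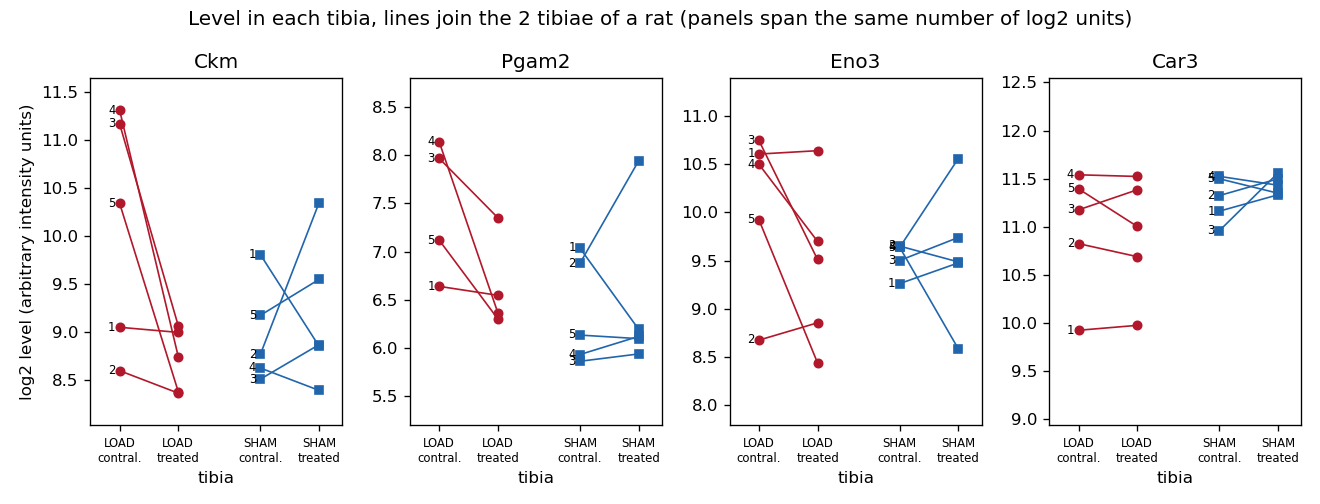
Log2 level (y axis, loess and Aquantile normalized intensity) in the contralateral and the treated tibia of every rat, joined by a line and numbered by replicate, in LOAD (red circles) and SHAM (blue squares). The steep lines of Ckm in LOAD start from contralateral levels of 10.34 to 11.31 and end between 8.38 and 9.07, whereas the lines of Car3 span at most 0.60.

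Across the 10 rats the level of the treated tibia was compared with that of the contralateral tibia. Pearson's r was -0.14 for Ckm (rho 0.08), 0.43 for Pgam2 (rho 0.63, n = 9), 0.37 for Eno3 (rho 0.26) and 0.85 for Car3 (rho 0.49), with permutation p = 0.715, 0.246, 0.298 and 0.0129 for r and 0.84, 0.0757, 0.467 and 0.156 for rho. After Benjamini-Hochberg adjustment over the 4 genes p for r was 0.0517 in Car3 and 0.398 or more in the others. The relation in Car3 rested on LOAD 1 and LOAD 2, without which r was -0.19. Leaving out the 2 farthest rats gave r = -0.19 for Ckm, 0.46 for Pgam2 and 0.31 for Eno3. With the exchanged controls of the arrays numbered 4, r was -0.30 for Ckm, 0.31 for Pgam2, 0.14 for Eno3 and 0.85 for Car3. Both tibiae of a rat shared a spot and an array, and the median r over 4472 genes was 0.78. A lower r than that of Ckm was found in 0.648% of these genes, than that of Eno3 in 9.21% and than that of Car3 in 66.7%.

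The spread between rats told the members apart. The SD of the log2 ratio of Ckm ranked 29th of 4563 genes in LOAD and 43rd of 4616 in SHAM, where the median SD of all genes was 0.255 and 0.19. Eno3 ranked 150th and 100th, and Pgam2 122nd in SHAM. Car3 ranked 2701st in LOAD and 1041st in SHAM. Ckm, Eno3 and Pgam2 thus varied more than most genes also between rats that were only squeezed.

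On the same array the ratio of Pgam2 followed that of Ckm. Pearson's r over 9 arrays was 0.92 (permutation p = 0.00047, adjusted over 6 pairs of members p = 0.00282) and Spearman's rho 0.82 (permutation p = 0.0112, adjusted p = 0.0672). Leaving out LOAD 3 and LOAD 4, whose Ckm ratios were farthest from the median, gave r = 0.92. With the group means removed r was 0.87 (permutation p = 0.00409, adjusted p = 0.0245) and rho 0.68 (permutation p = 0.0505), and without the 2 farthest arrays, LOAD 1 and SHAM 2, that r was 0.67. Ckm and Eno3 gave r = 0.64 (permutation p = 0.0469, adjusted p = 0.141) and rho = 0.58 (permutation p = 0.0896), with r = 0.52 without LOAD 3 and LOAD 4 and 0.51 with the group means removed. With the exchanged controls of the arrays numbered 4, that r was 0.81 (permutation, adjusted p = 0.0137), Ckm and Pgam2 gave 0.93 and Pgam2 and Eno3 gave 0.66 (permutation, adjusted p = 0.0972). Pgam2 and Eno3 gave r = 0.34 and rho = 0.22, and -0.02 and -0.27 with the group means removed. Car3 gave r = 0.30 with Ckm, 0.26 with Pgam2 and 0.29 with Eno3, with rho between 0.13 and 0.22 and adjusted permutation p = 0.502 for each r. These values moved with the normalization, to 0.46, 0.63 and 0.04 under median centring and to 0.71, 0.82 and 0.62 without normalization. Scan batches held at most 4 arrays, too few for a relation within a batch.

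In the contralateral tibiae alone Ckm and Pgam2 were again the closest pair, although Pgam2 had signal in only 2 of these tibiae in LOAD and 1 in SHAM. Their log2 levels had r = 0.93 (permutation p = 0.00051, adjusted p = 0.00306, n = 9) and rho = 0.93 (permutation p = 0.00083), with r = 0.76 without LOAD 3 and LOAD 4. In the treated tibiae r was 0.70 (permutation p = 0.047, adjusted p = 0.282) and rho 0.33, and without SHAM 2 and SHAM 5 r was 0.53. Of the 5 tibiae with the highest level, Ckm shared 4 with Pgam2, 2 with Eno3 and 1 with Car3. The 4 shared tibiae were the contralateral ones of LOAD 3, LOAD 4 and LOAD 5 and the treated one of SHAM 2.

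**Figure D3:**
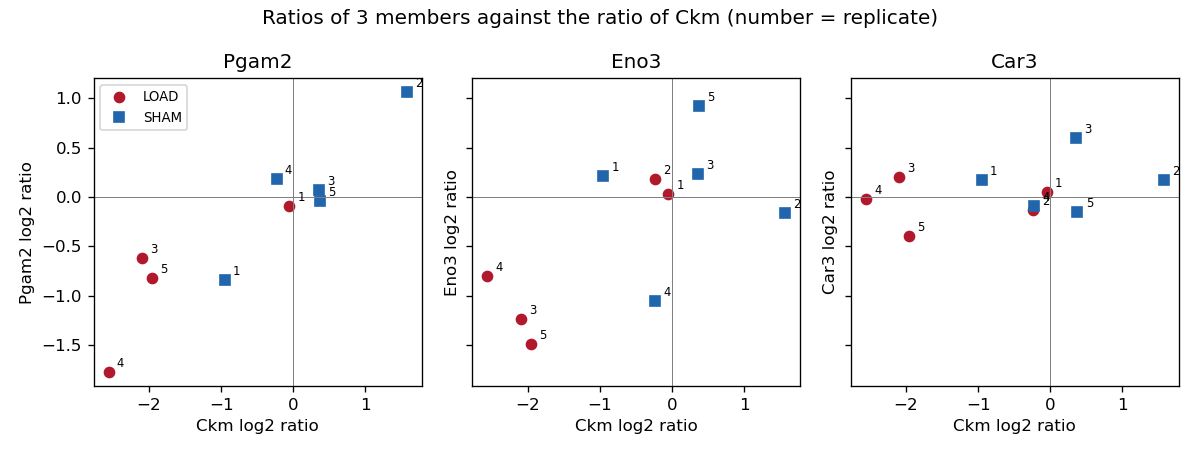
Log2 ratios of Pgam2, Eno3 and Car3 (y axes) against the log2 ratio of Ckm (x axis) on each array, LOAD as red circles and SHAM as blue squares with the replicate number. Pgam2 follows Ckm over 9 arrays (r = 0.92), and Car3 stays between -0.39 and 0.60 over the whole range of Ckm (r = 0.30).

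To set slow fiber against fast fiber enzymes, the log2 ratio of Ckm, Pgam2 or Eno3 was subtracted from that of Car3 on each array. Car3 minus Ckm was 0.10, 0.10, 2.30, 2.54 and 1.57 on LOAD 1 to 5 and 1.12, -1.40, 0.24, 0.14 and -0.52 on SHAM 1 to 5. It was above 0 on 5 of 5 LOAD arrays and on 3 of 5 SHAM arrays, and the groups overlapped. The mean in LOAD was 1.32 ± 1.17 (SD, n = 5; exact sign-flip p = 0.0625, the smallest possible), and LOAD minus SHAM was 1.41 (exact permutation p = 0.0873, adjusted over 3 differences p = 0.262). Car3 minus Pgam2 gave 0.79 ± 0.70 (SD, n = 4) in LOAD and a group difference of 0.74 (exact permutation p = 0.183, adjusted p = 0.274). Car3 minus Eno3 gave 0.61 ± 0.74 (SD, n = 5) and 0.50 (exact permutation p = 0.333, adjusted p = 0.333). With the exchanged controls of the arrays numbered 4, the group differences were 0.34, -0.25 and 0.16. A difference in LOAD minus SHAM between slow and fast fiber enzymes was therefore not shown by these tests.

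Beside Ckm, Pgam2 and Eno3, the fast fiber list held only 2 other genes. Myl11, a fast myosin light chain, differed by -1.86 (LOAD minus SHAM, standard error 0.84) and Tnni2, the inhibitory troponin of fast fibers, by -0.42 (standard error 0.22), with a median of -1.14 for this pair. Over all genes tested the median was -0.01, and 52.2% of genes were below 0. Of the slow fiber list 3 of the 4 genes other than Car3 were below 0, with a median of -0.18. Its genes Tnni1 and Casq2, which inhibit thin filaments and store calcium, were at -0.29 and -0.23, but Casq2 had signal in 0 of 20 channels. Of 11 other genes of skeletal muscle 7 were below 0, with a median of -0.05, among them the muscle protease Capn3 at -0.69 (standard error 0.31) and the myogenic factor Myf6 at -0.28, which had signal in 4 of 20 channels, whereas the myogenic factor Myog was at 0.33 with signal in 2. At a false discovery rate of 20%, limma called none of these genes (adjusted p = 0.999 for each in LOAD minus SHAM).

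The summed log2 level of the fast fiber genes other than the members, Myl11 and Tnni2, was 10.04 to 10.55 in the treated and 10.29 to 11.89 in the contralateral tibiae of LOAD. In SHAM it was 10.16 to 11.42 in the treated and 10.21 to 11.05 in the contralateral tibiae. The mean log2 ratio of this pair of genes was 0.05, -0.01, -1.89, -2.35 and -1.04 on LOAD 1 to 5 and -0.94, 1.47, 0.08, 0.05 and -0.19 on SHAM 1 to 5, so that it moved with Ckm. The sums of the 4 slow fiber genes other than Car3 lay between 10.17 and 11.11 and those of the 11 other muscle genes between 12.42 and 13.28 over all tibiae. The part of skeletal muscle left on the bones in these differences was not tested. In RNA of a whole shaft, fewer muscle fibers and less RNA per fiber cannot be told apart. Bone itself was well represented, as Sparc, Spp1, Ibsp and Mepe, matrix proteins of osteoblasts and osteocytes, had signal in all 20 channels.

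Of the glycolysis and lactate list, 15 genes were tested and 6 were below 0 in LOAD minus SHAM (median 0.01). Without Pgam2 and Eno3, 4 of 13 were lower. Alpha-enolase (Eno1), the form of most tissues, differed by 0.05 (standard error 0.41), with 0.04 ± 0.83 in LOAD and -0.01 ± 0.73 in SHAM (SD, n = 5 each). Aldoa, the aldolase of muscle that other tissues express as well, differed by 0.02 (standard error 0.42), Ldha by 0.03 and Gapdh by 0.11. The lowest p of the list beside the members was that of hexokinase 2 (Hk2), at 0.17 (standard error 0.14, limma adjusted p = 0.999). The low ratios of Pgam2 and Eno3 were thus not shared by most glycolytic genes measured.

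Of the phosphagen and creatine list, 3 genes other than Ckm were tested, with a median of -0.07 in LOAD minus SHAM. Ckb, the brain form of creatine kinase, had a lower ratio on 5 of 5 LOAD arrays, at -0.27 ± 0.36 (SD, n = 5) against 0.10 ± 0.42 in SHAM, and LOAD minus SHAM was -0.38 (standard error 0.22, limma adjusted p = 0.999). Gamt, which makes creatine, and Slc6a8, which takes it up, had mean ratios of -0.001 and -0.009 in LOAD and differed by 0.04 and -0.07 from SHAM. Of the glycogen list Gys2 and Pgm1 differed by -0.01 and -0.08.

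Of the other carbonic anhydrases, Car2, the form of red cells and osteoclasts, differed by 0.40 (standard error 0.40), Car4 by 0.01 and Car5a by -0.02. Of the 7 adipocyte genes, to which Car3 belongs, 3 were below 0 in LOAD minus SHAM, and without Car3 the median of the other 6 was 0.06. Lipe and Ucp1 of that list differed by 0.14 and -0.12. The summed log2 level of those 6 genes lay between 11.22 and 12.04 in all tibiae, and LOAD 1, where Car3 was lowest, had 11.61 in the treated and 11.65 in the contralateral tibia. The red cell list had 4 genes with a median of 0.20, among them Slc4a1 at 0.30 (standard error 0.82), Car2 at 0.40 and Epor at 0.09 (standard error 0.26). Of the 6 bone genes 3 were below 0 with a median of -0.004, and Mepe, Pdpn and Phex differed by 0.73 (standard error 0.32), -0.21 (standard error 0.25) and 0.12 (standard error 0.20). The 4 cartilage genes had a median of -0.23, with Chad at -0.32 (standard error 0.18, signal in 2 of 20 channels), Hapln1 at -0.19 (standard error 0.15) and Col2a1 at -0.27 (standard error 0.22). The osteoclast genes Slc4a2 and Acp5 were at -0.25 (standard error 0.10) and -0.43 (standard error 0.31). In limma none of the genes of these lists passed in LOAD minus SHAM (adjusted p = 0.999 for each).

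**Figure D4:**
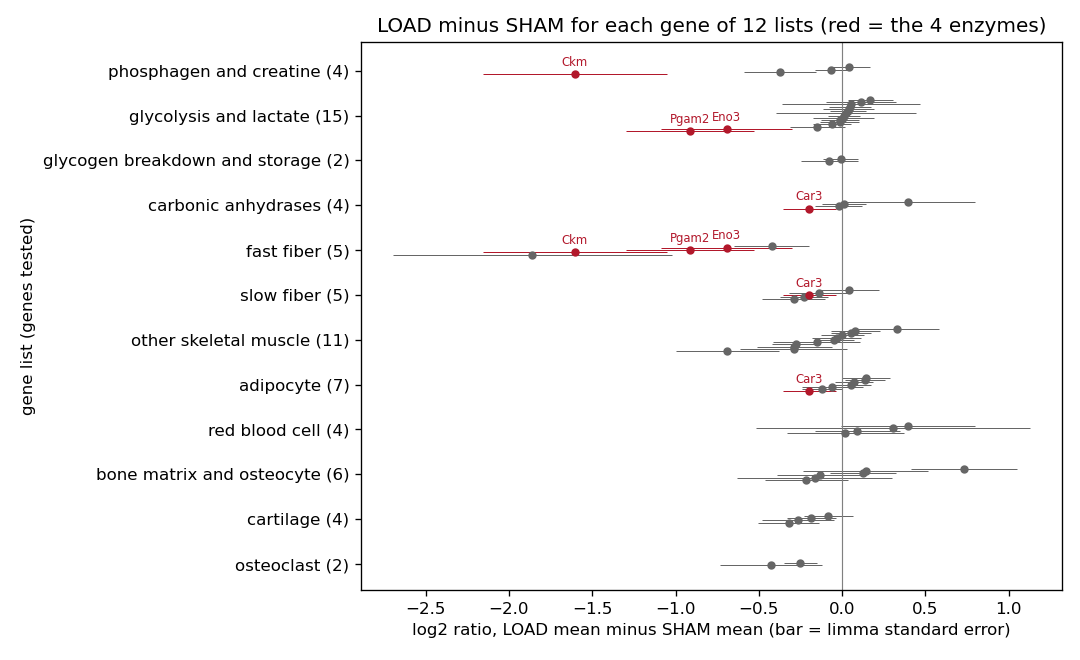
LOAD minus SHAM in the log2 ratio (x axis) for every tested gene of 12 lists (y axis, number of genes tested in parentheses), with limma standard errors as bars and the 4 enzymes in red. The fast fiber genes extend from -0.42 to -1.86, whereas the glycolytic genes other than Pgam2 and Eno3 lie between -0.15 and 0.17.

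The genes with the most similar pattern were sought among 1080 named genes with a value on every array, by Pearson's r of the log2 ratio over the arrays. For Ckm these were Maoa, which degrades monoamines (r = 0.97), the fibrinogen chain Fgb (0.97), Troponin-C (0.97), Myl11 (0.96) and Svs4 (0.94). For Pgam2, over 9 arrays, they were Myl11 (0.96), Fgb (0.94), Troponin-C (0.94), Klc-C, a kinesin light chain (0.93), and Maoa (0.92). Maoa, Fgb, Troponin-C and Myl11 were thus in the first 5 of both enzymes. Maoa, Fgb, Troponin-C and Klc-C were, like Ckm, selected by the study as lower in LOAD on these same arrays. Their similarity is therefore not independent evidence. By real-time RT-PCR the study detected no fibrinogen transcript in any tibia and found no significant difference in Maoa or the kinesin light chain. For Ckm and Troponin-C it reported a tendency to lower levels in the loaded than in the contralateral tibia. Between LOAD and SHAM it found no difference in either gene. Troponin-C had signal in 9 and Myl11 in 12 of 20 channels.

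For Eno3 the most similar gene was Ckb (r = 0.91), first also among all 4469 genes compared, followed by Rab4a (0.81), Adam2 (0.81), Asgr1 (0.78) and Cp (0.78). None of the 5 was shared with Ckm or Pgam2, and Adam2 had signal in 1 of 20 channels. For Car3 they were the proteoglycan Sdc2 (0.86), Cpt1b, the muscle form of the mitochondrial fatty acid transporter (0.85, with signal in 0 of 20 channels), the parathyroid hormone receptor Pth1r (0.83), the plasminogen activator Plat (0.81) and Acadvl (0.78), an enzyme of fatty acid oxidation. The number of genes with r over 0.9 was 13 for Ckm, 15 for Pgam2, 1 for Eno3 and 1 for Car3. These correlations share the arrays and their normalization and are a description.

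Under other settings of the normalization, the filters and the model, LOAD minus SHAM in Ckm lay between -1.67 and -1.44. It lay between -0.97 and -0.62 in Pgam2, between -0.75 and -0.52 in Eno3 and between -0.33 and -0.11 in Car3. With SHAM 1 counted as LOAD, Ckm was at -1.83. Leaving out 1 array at a time gave -1.94 to -1.27 for Ckm, -1.16 to -0.60 for Pgam2, -0.97 to -0.47 for Eno3 and -0.27 to -0.08 for Car3.

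**Figure D5:**
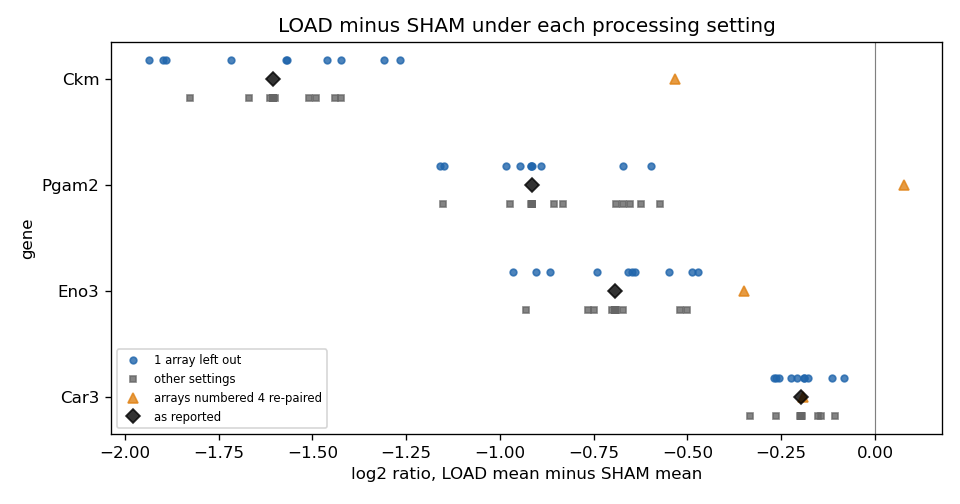
LOAD minus SHAM in the log2 ratio (x axis) of the 4 enzymes (y axis) as reported (black diamonds), with 1 array left out (blue circles), under other settings (grey squares) and with the contralateral tibiae of the arrays numbered 4 exchanged by the header numbers (orange triangles). The exchange moved Ckm from -1.60 to -0.53 and Pgam2 from -0.92 to 0.08, more than any other setting.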

How the data were processed

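The authors used BlueFuse to read the spots of the 10 arrays. The deposited scanner files hold an intensity per dye, with duplicate spots combined into 1 value per accession. The fractions deposited beside it are a confidence of the spot and, for either channel, the probability of signal. The deposited matrix holds log2 values of treated over control, equal to those of the intensities without normalization (largest difference 0.000527) and were used only for this check. Columns that could not be mapped to a sample numbered 0.

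Groups and dyes came from the sample labels. Spots with a confidence under 0.11 were left out, log2 ratios were normalized within arrays by loess (span 0.3, 4 iterations), turned to treated over contralateral, and 96 of 4803 accessions, missing on 2 arrays or more, were left out. Group means and their difference were tested in limma 3.58.1 (R 4.3.3) over 4707 genes with Benjamini-Hochberg adjustment, at a false discovery rate of 20% as in the study. Levels are log2 intensities after loess and Aquantile, tested by limma's single channel fit over 4472 genes without missing values (intraspot correlation 0.743). The duplicates could not be treated as separate spots. Exact permutation tests are 2-sided, with 252 arrangements for 5 against 5 arrays (smallest p 0.00794), and correlations were tested with 100000 permutations. The number of arrays limits the precision. The fits were tested on simulated data.

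Members and lists were chosen with earlier results of these data known. Names came from RefSeq for 1177 accessions and from the study for 7, and 3619 had none. The text names the 4 members, the 5 named genes most correlated with each, up to 3 genes of lowest p per list, and list genes the members are set beside. Replicate numbers did not pair rats.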

Additional observations from a re-analysis of the deposited data

Results flagged for a closer look

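Of 24 groups of ratios or levels of the 4 enzymes, 1 held a value far from the others. Pgam2 had a log2 level of 7.94 in the treated tibia of SHAM 2, against 5.94 to 6.19 in the treated tibiae of the other SHAM rats, a gap of 0.872 of the whole range of the group. Its signal probability there was 1. Ckm had its highest SHAM level, 10.34, in the same tibia. Chance marks about 1 in 20 groups in this way.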

How the results depend on the processing

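Of the alternatives run for each result, 718 of 752 kept the direction and the side of the threshold. None of the members passed the threshold in the reported fits, so there only a reversal or a new call could count as a change. The move of LOAD minus SHAM in Ckm from -1.60 to -0.53 with the exchanged controls counted as kept. The count is therefore no measure of how stable the sizes were. Without normalization, Ckm in LOAD passed the threshold (-1.63, adjusted p = 0.00205 in limma), 9 genes passed in LOAD and 2 in LOAD minus SHAM, the SHAM means turned to -0.19 for Ckm, -0.31 for Pgam2, -0.40 for Eno3 and -0.26 for Car3, and r became 0.84 for Ckm and Eno3, 0.71 for Ckm and Car3, 0.77 for Pgam2 and Eno3 and 0.82 for Pgam2 and Car3, all past the threshold; the cause was not tested. Eno3 in SHAM was -0.022 with a dye term, -0.064 with the scan batch as a block and -0.015 with SHAM 1 counted as LOAD. Chosen after seeing the data, the exchange of the contralateral tibiae of the arrays numbered 4 turned SHAM to -0.31 for Ckm, -0.35 for Pgam2 and -0.14 for Eno3, LOAD minus SHAM to 0.078 for Pgam2 and Car3 minus Pgam2 to -0.25, and raised r of Ckm and Eno3 to 0.81. With group means removed, r of Pgam2 and Eno3 was -0.02.

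Leaving out 1 array gave -0.123 to 0.027 for Car3 in LOAD, -0.11 to 0.52 for Ckm, -0.15 to 0.32 for Pgam2 and -0.19 to 0.30 for Eno3 in SHAM, -0.44 to 0.11 for Eno3 between treated tibiae, and r from -0.005 to 0.538 for Eno3 and Car3. The count of genes past the threshold between contralateral tibiae was 0 to 14, with 14 without LOAD replicate 3. Without LOAD replicate 4, Pgam2 in LOAD was -0.51.

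With the replicate block, 17 genes passed between contralateral and 6 between treated tibiae, against 0. Ckm in LOAD minus SHAM stayed at -1.60 (limma adjusted p = 0.999) and Pgam2 was at -0.67. Same-numbered rats did not deviate together (r from -0.41 to 0.07), so the numbers were not taken as pairs.

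Signal limits Pgam2 most, with 5 of 20 channels above background.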
